A study of Mus musculus with 6 samples.

Results

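The miR-125 family of mouse nephron progenitors is described here through its 5 mature miRNAs, mmu-miR-125a-5p, mmu-miR-125a-3p, mmu-miR-125b-5p, mmu-miR-125b-1-3p and mmu-miR-125b-2-3p, written below without the species prefix. They were taken by name, not by their values, from a table of 1034 distinct mature miRNAs. All 5 were listed there, and all 5 were among the 670 whose mean level reached 1 TPM, the deposited unit, in which reads are divided by length and scaled to a fixed library total. The cells were from CD1 mice, taken either in the embryo (E14.5) or on the day of birth (P0), with 3 libraries labelled as replicates per stage and no genetic change or drug named in the labels. For each library up to 24 kidneys of 1 litter were pooled and digested for 15 min with collagenase A and pancreatin, and cells were captured on beads through Itga8, an integrin of the nephron progenitor surface. The comparison asks how the miRNA content of these progenitors differs between mid-gestation and birth. Small RNA of a bead-captured pool was sequenced, so fewer cells of a type and less RNA per cell cannot be told apart.

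The miR-125 miRNAs are the mammalian relatives of the worm timing gene lin-4. A miRNA is cut from a hairpin RNA whose 5p arm and 3p arm can each give a mature strand, and in this family the 5p arm is the main strand loaded into Argonaute, where its seed pairs with target messenger RNAs. Among the known targets is Lin28, the RNA-binding protein that blocks let-7 maturation, and each of the miR-125 genes lies in a cluster with a let-7 gene and a miR-99 or miR-100 gene. The miR-125b-5p strand is made by a pair of genes, Mir125b-1 and Mir125b-2, and is the same in both, whereas their 3p strands differ and so tell the genes apart.

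The mature sequences, from RefSeq on build GRCm38.p6, are given because the seed groups the members and the 3p strands separate the genes. Capitals mark the seed, bases 2 to 8.
miR-125a-5p: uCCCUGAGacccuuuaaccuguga
miR-125b-5p: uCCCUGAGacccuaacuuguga
miR-351-5p: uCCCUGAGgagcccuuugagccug
miR-125a-3p: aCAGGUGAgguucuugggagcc
miR-125b-1-3p: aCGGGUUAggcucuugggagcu
miR-125b-2-3p: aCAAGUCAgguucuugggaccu

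miR-125a-5p and miR-125b-5p had the same first 13 bases and differed by 3 edits over their 24 and 22 bases. miR-351-5p, from the X chromosome, was the only other miRNA of the table with this seed, and it shared the first 8 bases with both. The 3p strands had 3 different seeds, although each pair of them held a common run of 8 to 12 bases. The position of each member in the table equalled its RefSeq position.

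The hairpins of Mir125a (68 bases) and Mir125b-1 (77 bases) show where both strands lie, and capitals mark the mature strands, 5p first.
Mir125a: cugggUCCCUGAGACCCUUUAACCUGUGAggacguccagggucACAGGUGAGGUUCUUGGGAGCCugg
Mir125b-1: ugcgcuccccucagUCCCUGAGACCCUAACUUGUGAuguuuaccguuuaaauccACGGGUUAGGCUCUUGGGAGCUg

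On build mm10 (GRCm38), miR-125a-5p lies on chromosome 17 at 17830817 to 17830840 and miR-125a-3p at 17830855 to 17830876, both on the plus strand. In GENCODE release M21 they sit inside the protein-coding gene Spaca6, the 5p strand within an annotated exon and the 3p strand within an intron. miR-99b, let-7e and miR-125a together span 647 bases from the first 5p strand to the last. miR-125b-5p is listed on chromosome 9 at 41581940 to 41581961 (Mir125b-1) and on chromosome 16 at 77646279 to 77646300 (Mir125b-2), both on the plus strand. miR-125b-1-3p is at 41581980 to 41582001 on chromosome 9, in an exon of the transcript Gm28119 and in introns of the noncoding genes 3110039I08Rik and Gm49317. miR-125b-2-3p is at 77646318 to 77646339 on chromosome 16, in an intron of the noncoding gene Mir99ahg. These clusters are wider than that of miR-125a, at 50525 bases with miR-100 and let-7a-2 and 47361 bases with miR-99a and let-7c-1.

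The reads behind the TPM values numbered 2649506 to 23691028 in the E14.5 libraries and 21508833 to 34934526 in the P0 libraries, summed over all 1104 rows, so that a read listed in several rows of 1 of the 52 multi-copy miRNAs counts more than once. P0 replicate 1 stood apart: over the 670 miRNAs its mean correlation in log2(TPM + 1) was 0.908 with the other P0 libraries and 0.948 with the E14.5 libraries, so the results of the members are also given without it. The median log2 change of the 670 miRNAs, P0 over E14.5, was -1.20 with TPM and -0.17 with median-of-ratios scaling, which divides each library by the typical ratio of its miRNAs to their geometric means, so directions are given on both scales. Summed levels of marker miRNAs were lower at P0 in every library for 6 of 7 lists of other cell types in TPM, a scale on which 32.8% of all miRNAs were called lower and 46.4% were lower without overlap. The 2 endothelial miRNAs summed to 26608 to 44921 TPM at E14.5 and 5634 to 8158 TPM at P0, with 2 of 2 called lower. The 9 stromal miRNAs summed to 85580 to 102772 TPM and then 33691 to 46708 TPM, with 6 of 9 called lower, and the 5 epithelial miRNAs to 4122 to 23183 TPM and then 500.2 to 1542 TPM, with 5 of 5 called lower. Erythroid, leukocyte and neural sums were also lower at P0, with 1 of 5, 1 of 5 and 2 of 2 tested markers called lower. Of the erythroid markers 2 of 5 had a positive log2 change, as had 1 of the 5 leukocyte markers. The muscle sums overlapped (28.0 to 69.1 TPM against 15.4 to 133 TPM), with 0 of 3 called. With median-of-ratios scaling, added after seeing the data, the endothelial and epithelial sums were still lower in every P0 library and the other 5 lists overlapped. On that scale 5 of the 31 tested markers were called lower, 1 endothelial, 3 epithelial and 1 neural, and 1 leukocyte marker was called higher, beside 5.22% and 5.67% of all miRNAs. No listed marker was at 0 in all libraries, and the part of these cells in the miR-125 results was not tested. Nephron progenitors are defined by messenger RNAs, which this table does not measure, so the cell type label itself was not checked.

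The 5p strands made up nearly all of the family and were higher at birth, miR-125a-5p in TPM and after scaling, miR-125b-5p after scaling only. Together they held 1.48%, 2.63% and 2.10% of all TPM across the embryonic libraries and 5.60%, 3.59% and 2.91% across the newborn ones, in the order of replicates 1, 2 and 3, which is kept for all values below. The lowest P0 library was thus above the highest E14.5 library, and the mean sum was 1.95 times as high at P0. P0 replicate 1 raised that mean, with 55989 TPM against 35937 and 29134 TPM in P0 replicates 2 and 3. The two-sided permutation p, exact over the libraries, was 0.1, the smallest that 3 libraries against 3 allow. With limma at an adjusted p below 0.05, 1 of the 5 members was called higher in TPM, beside 1.34% of all 670 miRNAs, and 0 were called lower, beside 32.8% (34.2% in either direction). After median-of-ratios scaling, 2 were called higher, beside 5.67% of all miRNAs, and 0 lower, beside 5.22% (10.9% in either direction). In fits without P0 replicate 1, over 689 miRNAs, 1 member was called higher and 1 lower in TPM, beside 7.98% and 53.0% of all, and after scaling 4 were called higher, beside 21.6%. Of the 3 members from the 3p arm, 0 passed the threshold on either scale with all libraries in the fit.

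miR-125a-5p, the main product of Mir125a, measured 5245, 10173 and 7113 TPM across the embryonic libraries and 19987, 20731 and 14391 TPM across the newborn ones. The stages did not overlap, which held for 3.13% of all miRNAs in the direction of a higher P0. It rose 2.50-fold on the log2(TPM + 1) scale, a log2 change of 1.32 (SE 0.44, limma adjusted p = 0.0355). The call was lost with no filter on low values (limma adjusted p = 0.0595) and in 4 of the 6 fits that left out 1 library. The limma adjusted p was 0.148 without E14.5 replicate 1, 0.116 without E14.5 replicate 3, 0.142 without P0 replicate 2 and 0.075 without P0 replicate 3, and the log2 fold change stayed between 1.09 and 1.57. Without P0 replicate 1 the log2 fold change was 1.25 (limma adjusted p = 0.00572), and without E14.5 replicate 2 it was 1.57 (limma adjusted p = 0.0431). Scaled by median-of-ratios, its values were 3469.6, 6924 and 4149 at E14.5 and 22789, 39264 and 25379 at P0. It rose there 6.11-fold, a log2 change of 2.61 (SE 0.45, limma adjusted p = 0.0273), and that call too was lost in 4 of the 6 fits that left out 1 library, with limma adjusted p-values up to 0.158, and kept without P0 replicate 1 (0.000764) or E14.5 replicate 2 (0.0486).

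miR-125b-5p, the shared product of the Mir125b genes, measured 9546, 16114 and 13915 TPM across the embryonic libraries and 36003, 15206 and 14742 TPM across the newborn ones. P0 replicate 1 was more than any other library, while P0 replicates 2 and 3 lay within the E14.5 range, so the stages overlapped. Its log2 change in TPM was 0.64 (SE 0.47, limma adjusted p = 0.291), and 0.22 without P0 replicate 1 (limma adjusted p = 0.511). Among scaled values the stages no longer overlapped, with 6314, 10967 and 8116 at E14.5 and 41051, 28798 and 25998 at P0. A higher P0 without overlap held for 15.8% of all miRNAs on that scale, and a lower one for 19.6%. It rose there 3.80-fold, a log2 change of 1.92 (SE 0.42, limma adjusted p = 0.0311), or 1.68 without P0 replicate 1 (limma adjusted p = 0.00242). Leaving out any other single library lost the call, with limma adjusted p-values of 0.0558 to 0.158.

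**Figure D1:**
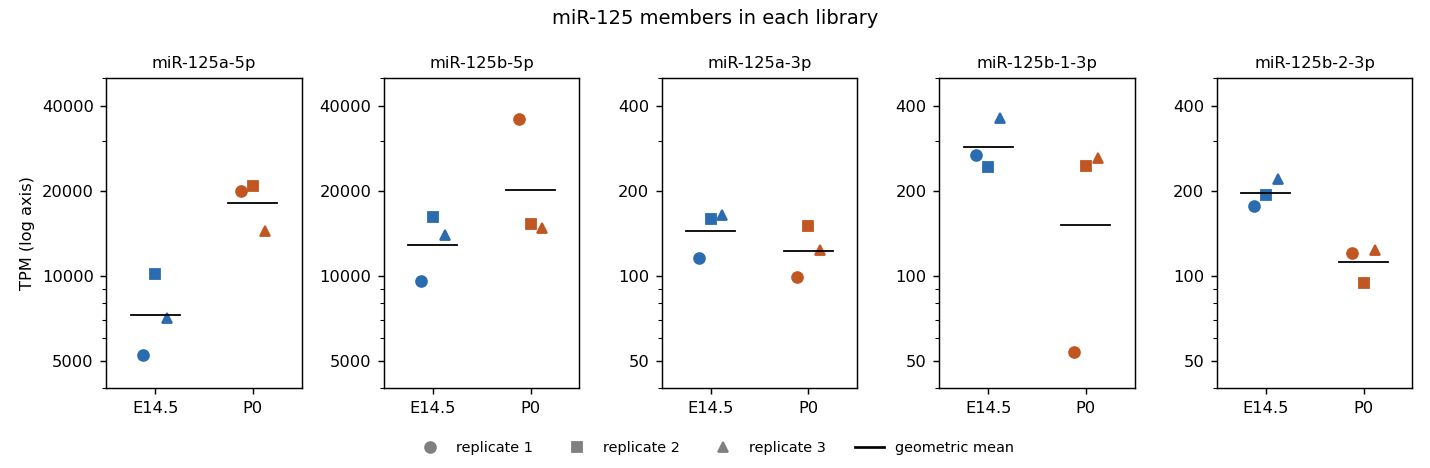
TPM of each miR-125 member (log axis) in the 3 E14.5 and 3 P0 libraries. Symbols are replicates and black bars are geometric means. miR-125a-5p lies higher in every P0 library than in any E14.5 library, and P0 replicate 1 has the highest miR-125b-5p (36003 TPM) and the lowest miR-125b-1-3p (53.9 TPM).

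Reads from the miR-125b genes cannot be assigned by the 5p strand. The chromosome 9 row held 0.814% to 1.18% more reads than the chromosome 16 row in every library, so the rows shared nearly all of their reads, and the chromosome 9 row, the larger, is used here. Among the members, miR-125b-5p was the most abundant in every E14.5 library, followed by miR-125a-5p, although their ranges overlapped across libraries. At P0, miR-125b-5p was above miR-125a-5p in 2 of 3 libraries and their ranges again overlapped. Among all miRNAs of a library, miR-125b-5p ranked between place 18 and place 27 at E14.5 and between place 5 and place 14 at P0, and miR-125a-5p between place 23 and place 38 and then between place 13 and place 17.

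The 3p strands were far less abundant and showed no change that passed the test in TPM or after scaling with all libraries in the fit. miR-125a-3p measured 115, 158 and 164 TPM across the embryonic libraries and 99.2, 149.9 and 123 TPM across the newborn ones. The stages overlapped in TPM, but scaled values were higher in every P0 library, as for 15.8% of all miRNAs. They were 76.4, 108 and 95.9 in the embryo and 113, 284 and 217 in the newborn. Its log2 change of -0.24 with TPM (SE 0.53, limma adjusted p = 0.729) became 1.04 with scaling (SE 0.49, limma adjusted p = 0.162), so its sign depended on the scale. The scaled value was 1.36 (limma adjusted p = 0.00956) when P0 replicate 1 was left out, a fit that called 21.6% of all miRNAs higher.

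miR-125b-1-3p, the strand particular to Mir125b-1, measured 268, 243 and 362 TPM across the embryonic libraries and 53.9, 246 and 262 TPM across the newborn ones. P0 replicate 1 was lower than all other libraries and the other P0 libraries lay within the E14.5 range. Its log2 change was -0.91 with TPM (SE 0.66, limma adjusted p = 0.279) and 0.37 with scaling (SE 0.73, limma adjusted p = 0.75). Leaving out P0 replicate 1 made these -0.18 (limma adjusted p = 0.644) and 1.28 (limma adjusted p = 0.00674), so the size on both scales and the call on the scaled one depended on this library. That scaled fit called 21.6% of all miRNAs higher.

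miR-125b-2-3p, the strand particular to Mir125b-2, measured 176, 193 and 221 TPM across the embryonic libraries and 121, 94.1 and 124 TPM across the newborn ones. In TPM it was lower in every P0 library than in any E14.5 library, as 46.4% of all miRNAs were. Scaled values separated the stages the opposite way, with 116, 132 and 129 in the embryo and 138, 178 and 218 in the newborn, as for 15.8% of all miRNAs. Its log2 change was -0.80 with TPM (SE 0.52, limma adjusted p = 0.227) and 0.48 with scaling (SE 0.43, limma adjusted p = 0.452). When P0 replicate 1 was left out, the TPM value was -0.86 (limma adjusted p = 0.0451) and the scaled value 0.59 (limma adjusted p = 0.124). That TPM fit called 53.0% of all miRNAs lower. At E14.5 the order among the 3p strands was miR-125b-1-3p, miR-125b-2-3p, miR-125a-3p in 3 of 3 libraries with no overlap, and at P0 neighbouring strands overlapped.

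The authors' own comparison of the stages also called the 5p strands and not the 3p strands, in the authors' deposited table. The authors' deposited table gave log2 changes of 2.26 for miR-125a-5p (standard error 0.58, adjusted p = 0.00267) and 1.67 for the chromosome 9 row of miR-125b-5p (standard error 0.57, adjusted p = 0.0304). The 3p strands had 0.99, 0.78 and 0.56 for miR-125a-3p, miR-125b-1-3p and miR-125b-2-3p in the authors' deposited table, with adjusted p-values of 0.253, 0.444 and 0.535. Of its 1034 miRNAs, 5.13% were called higher and 5.32% lower at P0 in the authors' deposited table.

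**Figure D2:**
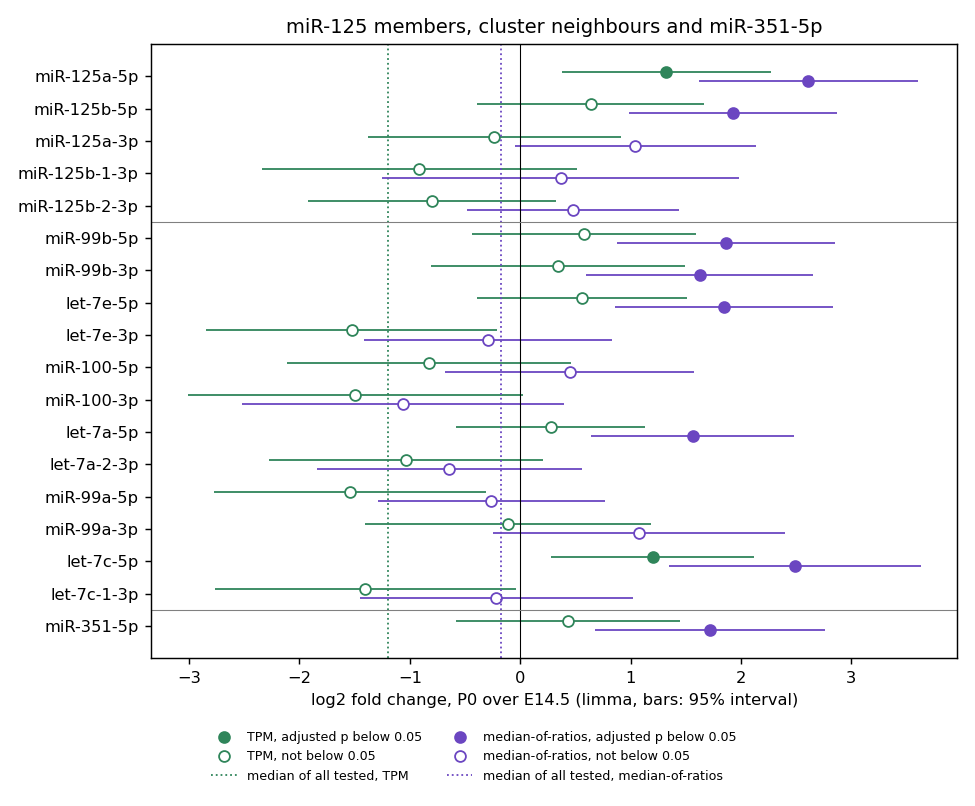
Log2 change (P0 over E14.5, limma) of the miR-125 members, their 12 cluster neighbours and miR-351-5p, as TPM and as median-of-ratios values, with 95% intervals. Filled points have an adjusted p below 0.05 and dotted lines mark the medians of all 670 miRNAs, -1.20 and -0.17. miR-125a-5p and let-7c-5p are filled on both scales.

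Ratios between strands of the same library do not depend on library scaling, and the 5p over 3p ratio of Mir125a was higher at birth in every library. miR-125a-5p over miR-125a-3p took the values 45.4, 64.3 and 43.2 across the embryonic libraries and 201, 138 and 117 across the newborn ones. The stages did not overlap, and the geometric mean went from 50.2 to 148, a 2.95-fold difference. In reads, the 3p strand was 1.97% of both strands (95% Wilson interval 1.76 to 2.20), 1.40% (1.36 to 1.45) and 2.07% (1.93 to 2.21) across the embryonic libraries. It was 0.451% (0.436 to 0.466), 0.656% (0.634 to 0.678) and 0.775% (0.746 to 0.805) across the newborn ones, so the differences between stages exceeded the counting error, which is all these intervals cover. The fold was 2.53 without P0 replicate 1, still without overlap.

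The same ratio for miR-125b-5p over its 3p strands together took the values 21.5, 36.9 and 23.9 across the embryonic libraries and 206, 44.7 and 38.2 across the newborn ones. All P0 libraries were above all E14.5 libraries, but P0 replicates 2 and 3 only narrowly, and the 2.65-fold difference of the geometric means became 1.55-fold without P0 replicate 1. For both ratios the two-sided permutation p, exact over libraries, was 0.1, the smallest possible value here, and 0.225 after Benjamini-Hochberg adjustment over the 9 ratios computed, so neither could pass the threshold.

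Across the 251 hairpins in which both strands averaged 1 TPM or more, a limma fit of the ratio of the more to the less abundant strand called 0 at an adjusted p below 0.05 (0.0% of hairpins), while 71 (28.3%) had an unadjusted p below 0.05, 36 of them (14.3%) higher at P0. This fit was chosen after seeing the data. The log2 change was 1.56 for Mir125a (95% interval 0.53 to 2.59, limma adjusted p = 0.134), 1.44 for Mir125b-2 (0.26 to 2.62, limma adjusted p = 0.166) and 1.55 for Mir125b-1 (-0.83 to 3.93, limma adjusted p = 0.303). Both Mir125b ratios use the whole of miR-125b-5p, whose reads cannot be assigned to a gene, so they are not independent. The median over all hairpins was -0.05, with 119 of 251 positive, and the miR-125 hairpins stood at the 84.5th, 82.1st and 84.1st percentile. A ratio without overlap and higher at P0 held for 16.7% of hairpins, among them Mir125a and Mir125b-2 but not Mir125b-1. In the fit without P0 replicate 1, 21.1% of hairpins were called higher and 22.3% lower, and Mir125a was called with a log2 change of 1.34 (limma adjusted p = 0.0319). Mir125b-2 then had 1.07 (limma adjusted p = 0.0634) and Mir125b-1 had 0.39 (limma adjusted p = 0.451).

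**Figure D3:**
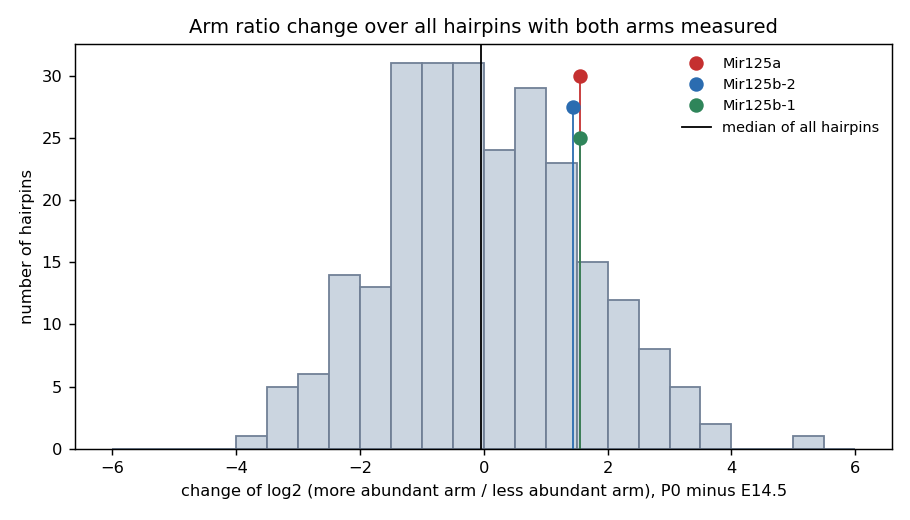
Histogram over 251 hairpins of the change, P0 minus E14.5, in log2 of the more abundant over the less abundant strand (1 TPM added to both). The miR-125 hairpins, marked by points at arbitrary heights, lie at 1.56, 1.44 and 1.55, to the right of the median of -0.05 but inside the main body of the distribution.

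The balance between Mir125a and the Mir125b genes did not separate the stages. miR-125b-5p over miR-125a-5p took the values 1.82, 1.58 and 1.96 across the embryonic libraries and 1.80, 0.733 and 1.02 across the newborn ones. P0 replicate 1 kept the E14.5 balance and the other P0 libraries were lower, so the stages overlapped (exact two-sided permutation p = 0.2, adjusted 0.36). The fold was 0.621 with all libraries and 0.487 without P0 replicate 1.

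Between the Mir125b genes, miR-125b-1-3p over miR-125b-2-3p took the values 1.52, 1.26 and 1.64 across the embryonic libraries and 0.446, 2.61 and 2.12 across the newborn ones. Mir125b-1 gave the more abundant 3p strand in 5 of the 6 libraries, and P0 replicate 1 alone had the opposite balance. The fold over the stages was 0.923 with all libraries (exact two-sided permutation p = 1) and 1.61 without P0 replicate 1, where both remaining P0 libraries lay above all E14.5 libraries. The lowest read count behind these ratios was 465, for miR-125b-2-3p in E14.5 replicate 1.

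**Figure D4:**
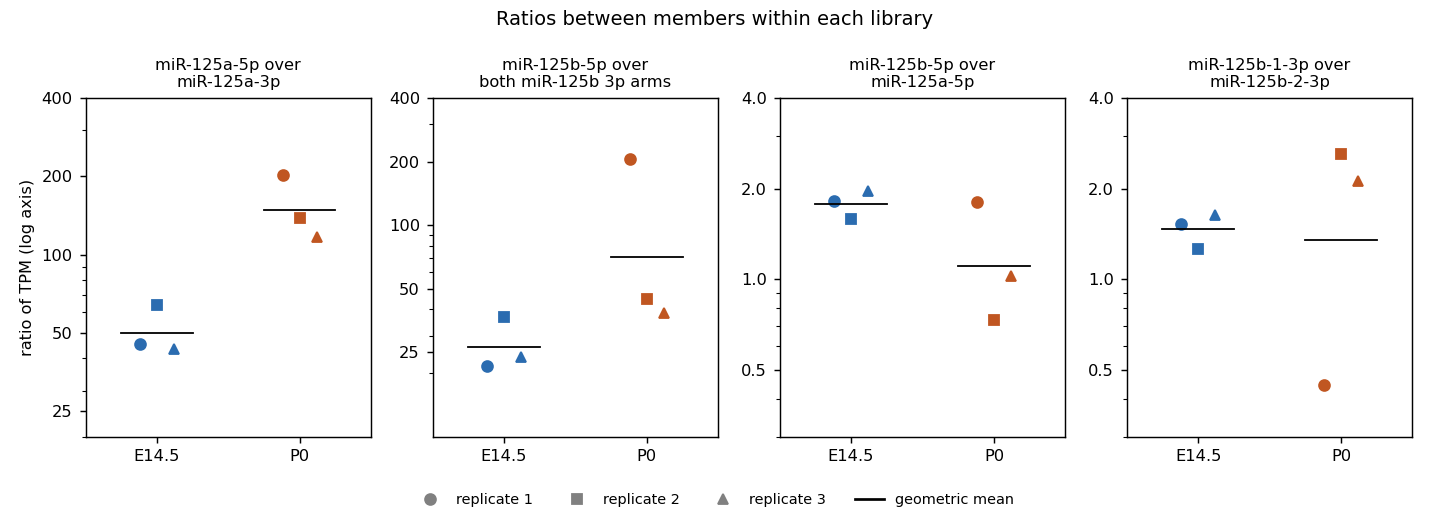
Ratios of TPM between miR-125 members within each library (log axes), by stage. Symbols are replicates and black bars are geometric means. The 5p over 3p ratio of miR-125a goes from 43.2 to 64.3 at E14.5 to 117 to 201 at P0, and in the panels for the Mir125b genes P0 replicate 1 lies far from the other P0 libraries.

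The neighbours in the miR-125 clusters did not share 1 direction, with 5 of 12 above 0 in TPM and 7 of 12 after scaling. Of all 670 miRNAs, 19.1% and 45.1% were above 0 on these scales. Of the 12 listed, all 12 were tested, and in TPM 1 was called higher and 0 lower, beside 1.34% and 32.8% of all miRNAs, with a median log2 change of -0.47 beside -1.20. After scaling 5 were called higher and 0 lower, beside 5.67% and 5.22% of all, with a median of 0.76 beside -0.17. Each of these 5 calls, and that of miR-351-5p, held in 1 of the 6 scaled fits that left out a library, the fit without P0 replicate 1, with limma adjusted p-values up to 0.221 in the others. In the Mir125a cluster, miR-99b-5p had 3342 ± 1256 TPM in the embryo and 4794 ± 697 TPM in the newborn (SD, n = 3), and let-7e-5p had 8168 ± 2769 and 11565 ± 808 TPM (SD, n = 3). Both overlapped between the stages in TPM, with limma adjusted p-values of 0.329 and 0.316, and both rose after scaling, by log2 changes of 1.86 and 1.84 (limma adjusted p = 0.0332 for each). The log2 change of miR-99b-3p was 0.34 by TPM (limma adjusted p = 0.606), and by scaled values it rose by 1.63 (limma adjusted p = 0.0494), a call lost with upper-quartile scaling (limma adjusted p = 0.0545), limma-voom, which weights log read counts, with median-of-ratios factors (0.0823) and the scaled replicate block (0.0517). let-7e-3p, the minor strand of let-7e, had -1.53 by TPM (limma adjusted p = 0.0664) and -0.29 by scaled values (limma adjusted p = 0.716).

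Within that short cluster the ratio of miR-125a-5p to each 5p neighbour was higher in every P0 library than in any E14.5 library. miR-125a-5p over miR-99b-5p took the values 2.40, 2.17 and 2.25 across the embryonic libraries and 3.82, 5.19 and 2.79 across the newborn ones. miR-125a-5p over let-7e-5p took the values 0.982, 0.935 and 0.858 across the embryonic libraries and 1.67, 1.72 and 1.35 across the newborn ones. The folds were 1.68 and 1.70, and these were 1.68 and 1.65 without P0 replicate 1. The two-sided permutation p, exact over libraries, was 0.1 for each, the smallest possible, and 0.225 after adjustment over the 9 ratios.

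In the Mir125b-1 cluster, miR-100-5p, of the miR-99 and miR-100 family, measured 90.5, 259 and 181 TPM across the embryonic libraries and 127, 64.4 and 92.3 TPM across the newborn ones, with overlap. Its log2 change was -0.83 with TPM (limma adjusted p = 0.278) and 0.45 with scaling (limma adjusted p = 0.559). let-7a-5p, which other let-7a genes also make, had 23471 ± 4584 TPM in the embryo and 28282 ± 4443 TPM in the newborn (SD, n = 3). Its log2 change was 0.27 with TPM (limma adjusted p = 0.583), and after scaling it rose by 1.56 (limma adjusted p = 0.0432), a call lost with upper-quartile scaling (limma adjusted p = 0.0508) and voom with median-of-ratios factors (0.0513). The strands miR-100-3p and let-7a-2-3p were at or below 8.81 and 3.70 TPM in every library, with 1 and 2 reads in E14.5 replicate 1 and none in P0 replicates 2 and 3. miR-125b-1-3p over miR-100-5p took the values 2.97, 0.94 and 2.00 across the embryonic libraries and 0.426, 3.82 and 2.84 across the newborn ones, with overlap (exact two-sided permutation p = 0.9).

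In the Mir125b-2 cluster, let-7c-5p, also made by another let-7c gene, measured 14878, 15917 and 19773 TPM across the embryonic libraries and 25278, 54226 and 41384 TPM across the newborn ones. It was higher in every P0 library on both scales, as 3.13% of all miRNAs were in TPM and 15.8% after scaling. It rose by a log2 change of 1.20 with TPM (limma adjusted p = 0.0453) and 2.49 with scaling (limma adjusted p = 0.0311). On each scale the call held in 1 of the 6 fits that left out a library, the fit without P0 replicate 1, with limma adjusted p-values up to 0.21 in the others with TPM. The TPM call was also lost with a pseudocount of 0.1 (limma adjusted p = 0.0524), no filter (0.0818) and limma-voom (0.0558). miR-99a-5p measured 497, 1157 and 814 TPM across the embryonic libraries and 450.2, 179 and 233 TPM across the newborn ones. In TPM it was lower in every P0 library, as 46.4% of all miRNAs were, and its scaled values overlapped. Its log2 change was -1.54 by TPM (limma adjusted p = 0.0517) and -0.26 by scaled values (limma adjusted p = 0.721). Its TPM value was -1.92 (limma adjusted p = 0.00116) without P0 replicate 1, a call. The log2 changes of miR-99a-3p were -0.11 (TPM) and 1.08 (scaled), those of let-7c-1-3p were -1.40 and -0.22, none past the threshold (limma adjusted p from 0.095 to 0.902) with all libraries in the fit. miR-125b-2-3p over miR-99a-5p took the values 0.354, 0.167 and 0.271 across the embryonic libraries and 0.268, 0.527 and 0.53 across the newborn ones, with overlap (exact two-sided permutation p = 0.3), and without P0 replicate 1 the fold went from 1.67 to 2.09 with no overlap. In the TPM fit without P0 replicate 1, 1 of the 12 neighbours was called higher and 4 lower, beside 7.98% and 53.0% of all miRNAs in that fit. The 4 were miR-99a-5p, let-7c-1-3p at -1.92 (limma adjusted p = 0.00559), let-7e-3p at -2.01 (limma adjusted p = 0.00179) and miR-100-3p at -1.86 (limma adjusted p = 0.0489).

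miR-351-5p, which carries the miR-125 seed, was the least abundant of the strands that do, at 1515, 2456 and 1736 TPM across the embryonic libraries and 2149, 3202 and 2324 TPM across the newborn ones. The stages overlapped in TPM (log2 change 0.44, limma adjusted p = 0.454), and it rose by 1.72 after scaling (limma adjusted p = 0.0461), a call lost with upper-quartile scaling (limma adjusted p = 0.0508) and voom with median-of-ratios factors (0.0750). miR-125b-5p over miR-351-5p took the values 6.30, 6.56 and 8.02 across the embryonic libraries and 16.8, 4.75 and 6.34 across the newborn ones, with the highest ratio in P0 replicate 1 (exact two-sided permutation p = 0.9). Together the strands with this seed had 1.63% to 2.87% of the TPM at E14.5 and 3.15% to 5.81% at P0.

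The pattern over the 6 libraries was compared with that of the 219 other miRNAs that averaged 100 TPM or more, by Pearson's r of log2(TPM + 1). The libraries share scaling and depth, so these values are a description. Most like miR-125a-5p were miR-676-3p (r = 0.918), let-7e-5p (0.907), miR-342-3p (0.904), miR-182-5p (0.890) and miR-140-3p (0.869). let-7e-5p is thus among them as the neighbour from the same cluster. Most like miR-125b-5p were miR-210-3p (r = 0.910), let-7f-5p (0.890), let-7a-5p (0.855), miR-615-3p (0.826) and miR-30d-5p (0.821). Of these, miR-210-3p measured 66.6, 128 and 101 TPM across the embryonic libraries and 244, 68.8 and 105 TPM across the newborn ones, highest in P0 replicate 1 as miR-125b-5p was. Between the members, r was 0.714 for the pair of 5p strands, -0.22 for the strands of Mir125a, and -0.898 and -0.377 for miR-125b-5p with miR-125b-1-3p and miR-125b-2-3p.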

How the data were processed

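Per the labels' protocols, total RNA was extracted with a Qiagen kit and made into single-end QIAseq miRNA libraries. featureCounts, DESeq2 1.26.0 and build mm10 are named in the submitters' processing notes, with no role or order. The aligner, the trimming and the use of molecular tags are not given in the sources used here. The authors deposited 1104 rows with TPM per library, the mean normalised signal, the log2 fold change with its standard error and statistic (scores), and p-values. The sign of the authors' log2 values was read from the per-library values.

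TPM times end minus start was a whole multiple of 1 step per library in 100% of values (tolerance 0.001), which gave reads. Of several rows of 1 miRNA, the one with most TPM was kept. limma 3.58.1 (R 4.3.3) with a variance trend and stage as the only term was fitted to log2(TPM + 1), which understates changes of low miRNAs, and called at a Benjamini-Hochberg adjusted p below 0.05. The fit was also run on simulated data with as many rises as falls and no outlying library. These data differ in both, so that run does not show its error rate here. Ratios were tested by exact permutation (scipy 1.17.1). Each library is a litter pool per the labels' protocols, so p-values measure the spread between such pools.

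Named were the members, 12 cluster neighbours, miRNAs with the seed and the 5 most alike to each 5p strand. Members and lists were chosen with earlier results of these data known. The alternatives were median-of-ratios (546 miRNAs) and upper-quartile scaling, other filters and pseudocounts, summed rows, limma-voom, TPM without the most abundant miRNA, a replicate block and leaving out each library. A floor of 3 reads was 0.0863 to 1.14 TPM for 22 bases.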

Additional observations from a re-analysis of the deposited data

How the results depend on the processing

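The calls depended on the scaling. In TPM 229 of 670 miRNAs were called (9 higher, 220 lower), and the counts were 73 (38 higher, 35 lower) with median-of-ratios and 58 (28 higher, 30 lower) with upper-quartile scaling. limma-voom gave 181 (4 higher, 177 lower), and 28 (17 higher, 11 lower) with median-of-ratios factors. Of the members, 2 were called higher under each of median-of-ratios scaling, upper-quartile scaling and voom with those factors, and 0 with no filter, where miR-125a-5p had 1.32 (limma adjusted p = 0.0595). Under those 3 scaled settings, in that order, the log2 changes were 1.92, 1.94 and 1.91 for miR-125b-5p, 1.04, 1.05 and 1.01 for miR-125a-3p, 0.37, 0.38 and 0.33 for miR-125b-1-3p, 0.48, 0.49 and 0.47 for miR-125b-2-3p, 0.45, 0.46 and 0.39 for miR-100-5p, and 1.08, 1.09 and 0.93 for miR-99a-3p. TPM without the most abundant miRNA gave 0.024 for miR-99a-3p. The cause of these shifts was not tested. Of the 10 most alike miRNAs, 6 stayed with a filter at 10 TPM and 5 with median-of-ratios scaling.

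The replicate numbers are those of the sample source names. The titles number the same libraries 2, 5 and 6 at E14.5 and 2, 4 and 6 at P0, so the replicate 2 libraries share no title number. Same-numbered libraries had deviations correlated at r of 0.0423 to 0.193, not all above the 0.1 asked for, so the numbers were not taken to pair the litters, although 5 of 6 libraries correlated best with their own number, a hint from the data and not the design. With the replicate block, 247 miRNAs were called in TPM, and 67 (38 higher, 29 lower) with the block and median-of-ratios scaling. There 2 members were higher, with log2 changes of 1.92 for miR-125b-5p, 1.04 for miR-125a-3p, 0.37 for miR-125b-1-3p, 0.48 for miR-125b-2-3p, 0.45 for miR-100-5p and 1.08 for miR-99a-3p. In TPM the blocked limma adjusted p of miR-125a-5p was 0.0329.

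Leaving out 1 library at a time, the number called ran from 72 to 420 in TPM (1 to 55 higher, 71 to 365 lower) and from 0 to 332 with median-of-ratios scaling (0 to 149 higher, 0 to 183 lower), the members called higher from 0 to 1 and from 0 to 4, and those lower from 0 to 1 in TPM. Log2 changes ran, in TPM and with that scaling, from 1.09 to 1.57 and 2.38 to 2.91 for miR-125a-5p, 0.22 to 0.86 and 1.68 to 2.14 for miR-125b-5p, -0.40 to -0.09 and 0.82 to 1.36 for miR-125a-3p, -1.31 to -0.18 and -0.09 to 1.28 for miR-125b-1-3p, and -0.88 to -0.68 and 0.34 to 0.59 for miR-125b-2-3p. They ran from -0.35 to 0.21 and 0.76 to 1.43 for miR-99a-3p, from -1.24 to -0.49 and 0.034 to 0.84 for miR-100-5p, -1.92 to -1.26 and -0.58 to 0.085 for miR-99a-5p, and -1.92 to -1.04 and -0.58 to 0.084 for let-7c-1-3p. The log2 ratio difference ran from -1.04 to -0.39 for miR-125b-5p over miR-125a-5p, -0.59 to 0.68 for the 3p strands of the Mir125b genes, 1.34 to 1.74 for the Mir125a strands, 0.63 to 1.85 for miR-125b-5p over its 3p strands, 0.52 to 0.97 for miR-125a-5p over miR-99b-5p, 0.70 to 0.87 over let-7e-5p, -0.69 to 0.89 for miR-125b-1-3p over miR-100-5p, 0.44 to 1.07 for miR-125b-2-3p over miR-99a-5p and -0.33 to 0.57 for miR-125b-5p over miR-351-5p. Hairpins called ran from 0 to 109, with changes of 1.34 to 1.74 for Mir125a, 1.07 to 1.73 for Mir125b-2 and 0.39 to 2.17 for Mir125b-1. Of the 293 values for neighbours and miR-351-5p, 232 kept direction and side of the threshold. miR-100-3p and let-7a-2-3p gave none under a filter at 10 TPM and without E14.5 replicate 3. E14.5 replicate 1, with 2649506 reads, limits the rare strands.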

Other observations

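Among the miR-125 hairpins, P0 replicate 1 differed most from the other P0 libraries in the ratio of miR-125b-5p to miR-125b-1-3p. Both Mir125b genes make this 5p strand, so neither this ratio nor that of Mir125b-2 belongs to 1 gene. With 1 TPM added to both strands, the ratio was 656 in P0 replicate 1. It was 61.6 and 56.0 in P0 replicates 2 and 3 and 35.4 to 66.0 at E14.5. The value in P0 replicate 1 is 11.2 times the geometric mean of the other P0 libraries, and 9 of the 251 hairpins differed by more in the same direction. The same comparison gave 2.14 times for Mir125b-2 and 1.58 times for Mir125a, with 71 and 90 of the 251 hairpins above them. In reads, miR-125b-1-3p was 30.9% of the 3p strands of both Mir125b genes in P0 replicate 1 (95% Wilson interval 29.7 to 32.0), and 55.7% to 72.3% in the other 5 libraries. The labels name no batch or date that sets this library apart.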
